A study of Mus musculus with 2 samples.

Results

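The genes described here carry inflammatory signalling through nuclear factor kappa B (NF-κB) and through interleukin 6 (IL-6). They were taken by symbol from a list of 41 genes, and all 41 were found among the 36808 genes of the authors' table. RNA had been sequenced from C57Bl6 mouse primary hepatocytes, the parenchymal cells of the liver, which were isolated and cultured in William E medium with FBS, insulin and dexamethasone. One culture was given GW3965 at 1 µM and the other the solvent DMSO. GW3965 is a synthetic ligand that activates the liver X receptors (LXR), nuclear receptors for oxysterols. Both groups shared strain, medium and dexamethasone, a glucocorticoid that is itself known to restrain inflammatory genes, and no culture without it was analysed here. Each group had 1 library, so no difference below has a replicate check, and the number of animals behind a library is unknown here. In the table the library beside DMSO is called GL. It was taken for GW3965, the 1 other sample in the labels, and that reading is not certain.

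NF-κB is a family of dimeric transcription factors held in the cytoplasm by inhibitor of κB (IκB) proteins. Signals from Toll-like receptors, the IL-1 receptor and tumour necrosis factor lead to IκB breakdown, and the freed dimers switch on cytokines, adhesion molecules and their own inhibitors. IL-6 acts through its receptor and the shared chain gp130 on STAT3, and in hepatocytes both routes drive the acute phase response. In macrophages, ligand-bound LXR is known to restrain many NF-κB target genes, and the comparison of GW3965 with DMSO shows what the ligand culture looked like for these genes in hepatocytes to which no inflammatory stimulus is recorded in the labels.

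Sequences before the transcription start are shown for 6 of the genes, because the promoters hold or lack the letters that NF-κB and STAT proteins are known to bind. They are RefSeq promoters of the build GRCm38.p6, cut to the 250 bases before the start. The NF-κB inhibitor Nfkbia (chr12:55492648-55492897, minus strand), the NF-κB subunit Nfkb2 (chr19:46304487-46304736, plus strand, its first start), the cytokine Il6 (chr5:30012864-30013113, plus strand) and the cytokine signalling inhibitor Socs3 (chr11:117969367-117969616, minus strand) are genes with matches. The adaptor Traf1 (chr2:34961773-34962022, minus strand) and the IL-1 receptor antagonist Il1rn (chr2:24345041-24345290, plus strand, the second of 3 starts) are the pair that passed 1.5-fold in the comparison below. Capitals mark matches on either strand to the κB consensus (a motif of 10 letters) and to the STAT motif TTCNNNGAA, and overlapping matches run together.
Nfkbia: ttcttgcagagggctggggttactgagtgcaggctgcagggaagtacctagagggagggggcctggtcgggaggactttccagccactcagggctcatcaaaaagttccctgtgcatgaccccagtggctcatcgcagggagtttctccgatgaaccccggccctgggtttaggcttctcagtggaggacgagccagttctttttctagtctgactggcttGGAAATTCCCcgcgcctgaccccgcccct
Nfkb2: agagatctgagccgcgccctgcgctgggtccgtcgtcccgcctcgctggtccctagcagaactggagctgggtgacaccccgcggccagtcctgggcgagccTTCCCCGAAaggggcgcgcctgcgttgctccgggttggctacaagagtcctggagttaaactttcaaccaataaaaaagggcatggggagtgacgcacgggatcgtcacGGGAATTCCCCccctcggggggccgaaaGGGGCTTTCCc
Il6: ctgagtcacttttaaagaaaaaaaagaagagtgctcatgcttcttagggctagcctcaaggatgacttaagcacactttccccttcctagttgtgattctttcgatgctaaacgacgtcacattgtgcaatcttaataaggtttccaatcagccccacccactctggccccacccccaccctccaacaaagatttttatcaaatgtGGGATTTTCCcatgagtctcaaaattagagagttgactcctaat
Socs3: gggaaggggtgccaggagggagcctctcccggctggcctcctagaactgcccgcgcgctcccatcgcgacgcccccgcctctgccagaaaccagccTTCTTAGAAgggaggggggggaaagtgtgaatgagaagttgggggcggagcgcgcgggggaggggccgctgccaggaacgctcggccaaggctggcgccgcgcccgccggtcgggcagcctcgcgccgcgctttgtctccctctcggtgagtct
Traf1: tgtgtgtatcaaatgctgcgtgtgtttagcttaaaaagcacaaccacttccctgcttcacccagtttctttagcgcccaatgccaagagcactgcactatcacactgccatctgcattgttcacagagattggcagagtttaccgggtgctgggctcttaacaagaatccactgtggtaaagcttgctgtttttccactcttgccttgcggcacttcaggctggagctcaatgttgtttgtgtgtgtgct
Il1rn: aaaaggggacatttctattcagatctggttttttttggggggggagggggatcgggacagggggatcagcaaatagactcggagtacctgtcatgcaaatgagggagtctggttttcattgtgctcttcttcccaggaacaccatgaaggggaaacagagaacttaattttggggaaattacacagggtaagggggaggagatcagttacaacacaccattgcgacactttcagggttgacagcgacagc
In Nfkbia the κB letters end at position -20 from the start, and in Il6 at -35. Nfkb2 holds both motifs, and the match of Socs3 is to the STAT motif, with its last base at -146. Neither Traf1 nor Il1rn holds a match in the windows searched, which says only that these letters are not there.

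RefSeq promoters were found for 33 of the 41 genes, with 41 promoters in all. The κB consensus occurred in 14 of these 41 promoters (34.1%), against 7.25% of all 32851 promoters of the same length. The STAT motif occurred in 5 of the 41 (12.2%), against 7.02% of all. A match of letters is not a binding site, and several of the genes are on the list because NF-κB is known to act on them. The 11 genes with κB letters and measurable RNA had log2 ratios of GW3965 to DMSO from -0.35 to 0.24 with a median of 0.03, and the 20 with a promoter lacking them had ratios from -0.64 to 0.62 with a median of -0.01.

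Levels are FPKM, fragment numbers that the authors divided by transcript length and library size, which allows genes to be compared with each other. Ratios between the libraries are the log2 of (FPKM + 1) with GW3965 divided by (FPKM + 1) with DMSO, so they come out too small for low genes. Of the 41 genes, 37 reached the minimum of 1 FPKM in either library. Il6, Csf3, Nos2 and Ptgs2 did not, and are given by their levels. Steps between low FPKM values put the libraries at about 63200000 fragments for DMSO and 78600000 for GW3965, so that a gene at 1 FPKM rested on about 63.2 and 78.6 fragments for each kilobase of effective length. The libraries were those of cultured hepatocytes that also held RNA typical of other liver cells. Apoa1, Ttr and Hnf4a, which mark hepatocytes, stood at 598, 205 and 49.4 FPKM in DMSO, while the hepatocyte enzymes Tat and Cps1 were at 0.962 and 1.497, and albumin gave no usable value because its locus was marked for too many fragments.

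The NF-κB, interleukin and IL-6 genes as a group stood where genes in general stood. Of the 37 genes at the minimum, 1 was at least 1.5-fold higher in GW3965 (Traf1) and 1 at least 1.5-fold lower (Il1rn). Over all 11796 genes at the minimum, 1.02% passed the same threshold upward and 1.33% downward, 2.35% together. Of the 37, 18 had a ratio below 0 (48.6%), against 47.1% of all genes. Their median ratio was 0.02, against 0.01 over all genes, and the median size of the ratio regardless of direction was 0.12, against 0.10. Within 0.2 of 0 on the log2 scale lay 28 of the 37 (75.7%), against 78.2% of all genes. A single gene past the threshold in each direction is too few to set against the background.

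**Figure D1:**
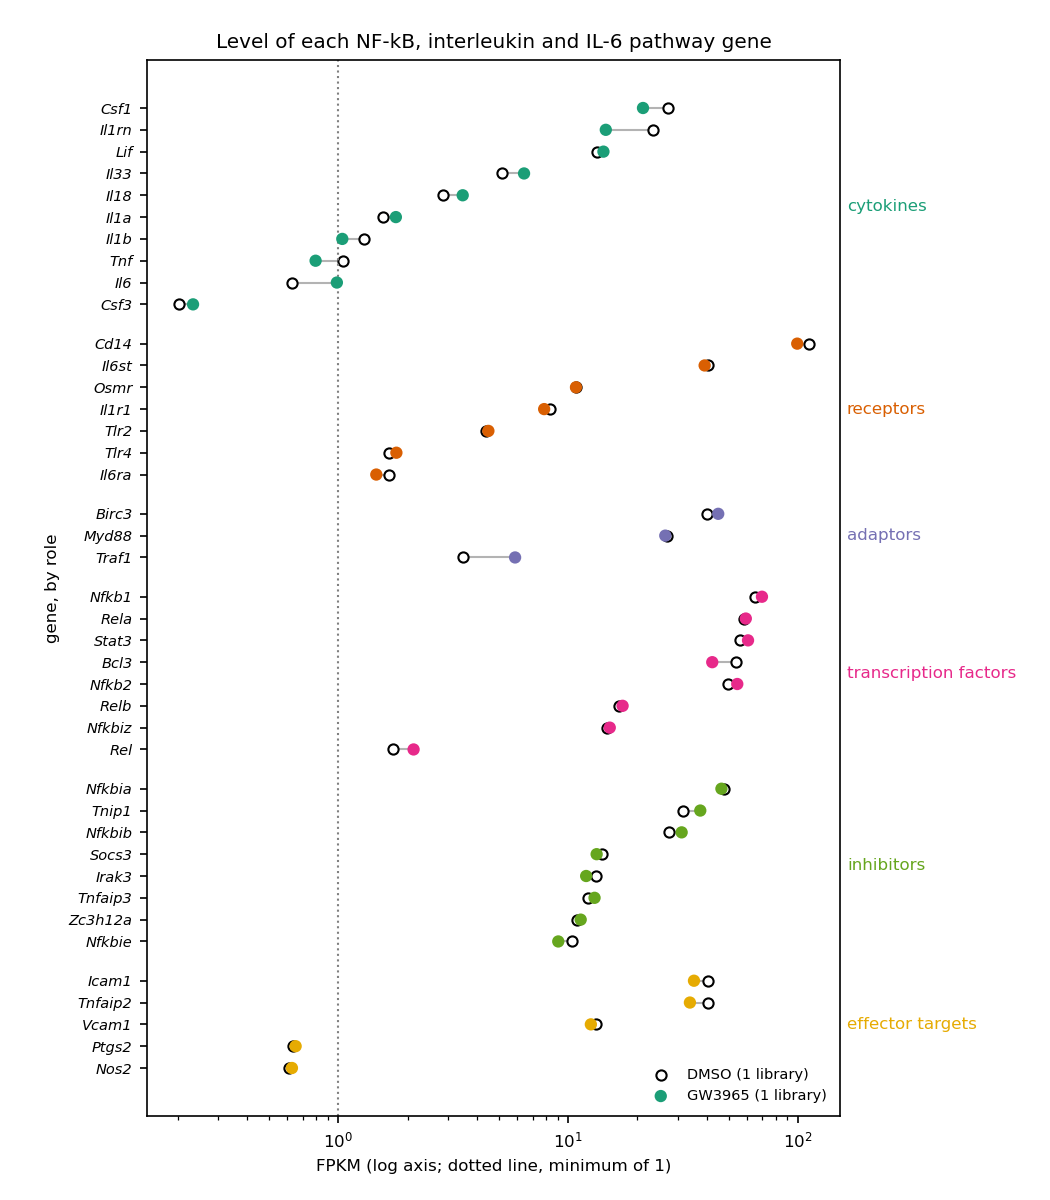
FPKM of each of the 41 genes in the DMSO library (open circles) and in the GW3965 library (filled, coloured by role), on a log axis, with a dotted line at the minimum of 1. Most pairs of circles touch, and Il1rn, Traf1 and Il6 show the widest gaps.

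**Figure D2:**
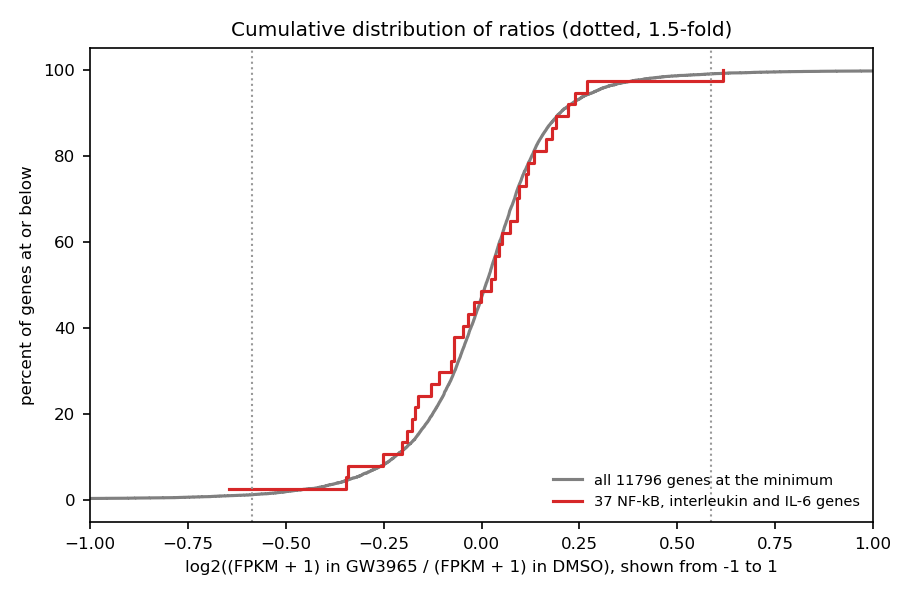
Percent of genes (vertical axis) at or below each log2 ratio (horizontal axis, from -1 to 1) for the 37 genes at the minimum and for all 11796 genes. Both curves cross near 0, with medians of 0.02 and 0.01, and 1 of the 37 lies beyond each dotted 1.5-fold line.

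Cytokines and growth factors had ratios from -0.64 to 0.27, the widest range of the 6 roles. Of 10 cytokine genes 8 reached the minimum, 4 were lower and 4 higher in GW3965, and the median ratio was -0.04. In a bulk sample, fewer cells of a type and less RNA per cell cannot be told apart, which applies to every cytokine here that another liver cell could make. Il1rn encodes the antagonist that occupies the IL-1 receptor without signalling (ENSMUSG00000026981, chromosome 2, 24192373 to 24207014, mm9). Its level was 23.3 FPKM with DMSO and 14.6 with GW3965, or a log2 ratio of -0.64 and the lowest of the 37. Of all genes at the minimum, 98.1% had a ratio of smaller or equal size. The FPKM ratio of 0.625 had a 95% interval from counting of 0.563 to 0.692, from about 844 and 655 fragments if all came from its shortest coding transcript of 728 bases. In the authors' deposited table, Il1rn had p = 0.0976 and q of nearly 1, without a call.

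The IL-1 agonists had small ratios of opposite sign. Il1b, the secreted IL-1 of activated macrophages, was at 1.29 FPKM with DMSO and 1.04 with GW3965, or a log2 ratio of -0.17. Il1a, its neighbour on chromosome 2, was at 1.57 and 1.78, or a log2 ratio of 0.11. The antagonist was thus far above both agonists in either library. The level of Il1rn over that of Il1a and Il1b summed was 8.16 with DMSO and 5.17 with GW3965. The locus of Il1a in the table is shared with Gm14023 and that of Il1b with Gm14047, and strand handling is not given in the sources used here, so their reads may not be fully separate.

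Csf1, the growth factor of macrophages, was at 27.2 FPKM with DMSO and 21.2 with GW3965, or a log2 ratio of -0.35, the next lowest after Il1rn. In the authors' deposited table its p was 0.135. Lif, an IL-6 family cytokine that signals through gp130, was at 13.3 and 14.2 (0.09). Csf1, Il1rn and Lif were the most abundant of the 10 cytokines in both libraries.

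Il33 and Il18, IL-1 family cytokines, were slightly higher in GW3965. Il33, a nuclear alarmin, was at 5.16 and 6.42 FPKM (0.27), with a counting interval of the FPKM ratio from 1.029 to 1.501. Il18, which needs processing by an inflammasome, was at 2.84 and 3.47 (0.22), with a counting interval from 0.942 to 1.595 that holds 1.

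Il6, Tnf and Csf3, the classic products of an inflammatory stimulus, were near or under 1 FPKM in both libraries. Tnf was at 1.05 FPKM with DMSO and 0.795 with GW3965 (-0.19), from about 87 and 82 fragments, with a counting interval of the FPKM ratio from 0.554 to 1.04. Il6 was at 0.629 and 0.984, from about 20 and 38 fragments, and its FPKM ratio of 1.57 had a counting interval from 0.868 to 2.77. Csf3, the granulocyte growth factor, was at 0.201 and 0.233, from about 16 and 23 fragments. No difference between the libraries was established for Il6, Tnf or Csf3, since each counting interval holds 1. For Il6 the interval rests on its shortest coding transcript, of 651 bases. A longer transcript would give more fragments and a narrower interval, so the interval of Il6 depends on that choice. In the authors' deposited table, Il6 had p = 0.150. Both cultures held little RNA of these cytokines.

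Receptors were nearly level. All 7 reached the minimum and lay within 0.2 of 0, 5 were lower and 2 higher in GW3965, and the ratios ran from -0.16 to 0.07 with a median of -0.05. Cd14, the co-receptor that hands bacterial lipopolysaccharide to Tlr4, was the most abundant of all 41 genes, at 111 FPKM with DMSO and 99.3 with GW3965 (-0.16). Tlr4, the lipopolysaccharide receptor, was at only 1.65 and 1.79 (0.07), so that Cd14 exceeded it 67.3-fold in DMSO and 55.6-fold in GW3965. Tlr2, the receptor of bacterial lipoproteins, was at 4.37 and 4.49 (0.03).

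RNA of the IL-6 receptor chains was similarly uneven, and protein was not measured here. Il6st, which encodes gp130, was at 40.6 FPKM with DMSO and 39.3 with GW3965 (-0.05). Il6ra, the chain that binds IL-6 itself, was at 1.65 and 1.46 (-0.11). The level of Il6st over that of Il6ra was 24.6 with DMSO and 26.9 with GW3965. Osmr, which pairs with gp130 to receive oncostatin M, was at 10.8 in both libraries (-0.003). Il1r1, the signalling IL-1 receptor, was at 8.35 and 7.86 (-0.08). These receptor levels differed far more between genes than between the libraries.

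Among the 3 adaptors, Traf1 stood apart. Traf1, an adaptor of the TNF receptor family (ENSMUSG00000026875, chromosome 2, 34797270 to 34817292, mm9), was at 3.48 FPKM with DMSO and 5.87 with GW3965. Its log2 ratio of 0.62 was the highest of the 37, and 97.9% of all genes at the minimum had a ratio of smaller or equal size. The FPKM ratio of 1.69 had a counting interval from 1.501 to 1.90. In the authors' deposited table, Traf1 had p = 0.0382 and q of nearly 1, and it was the 1 gene of the 41 with a p of at most 0.05. Of all 15090 genes tested in the authors' deposited table, 3.34% had such a p.

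The other adaptors were close in the libraries. Birc3, a ubiquitin ligase of TNF receptor complexes and itself a known NF-κB target, was at 40.0 FPKM with DMSO and 45.0 with GW3965 (0.17). Myd88, the adaptor of Toll-like and IL-1 receptors, was at 26.8 and 26.5 (-0.02), in a locus shared with Acaa1a.

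The transcription factors were abundant and nearly level. Of 8 genes, 7 were slightly higher in GW3965 and Bcl3 was lower, none passed 1.5-fold, and the median ratio was 0.07. Nfkb1, which encodes p105 and p50, was at 65.2 FPKM with DMSO and 69.7 with GW3965 (0.09). Rela, the p65 subunit that activates transcription with p50, was at 58.3 and 59.3 (0.02). Nfkb2, the subunit of the alternative route, whose locus is shared with Psd, was at 49.6 and 54.5 (0.13), and its partner Relb at 16.6 and 17.3 (0.05). Rel, the subunit best known from lymphoid cells, was at 1.74 and 2.12 (0.19). The 5 subunits together summed to 191 FPKM with DMSO and 203 with GW3965.

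Stat3, the effector of IL-6, was at 55.8 FPKM with DMSO and 60.6 with GW3965 (0.12). Its locus in the table is shared with its neighbour Stat5a. Nfkbiz, an atypical IκB that acts in the nucleus on genes such as Il6, was at 14.8 and 15.2 (0.04). Bcl3, another nuclear IκB protein and a partner of p50 and p52, was at 53.9 and 42.4 (-0.34), away from the other 7. In the authors' deposited table, Bcl3 had p = 0.140, and its locus is shared with Gm16174 and Gm16175.

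Feedback inhibitors gave no common direction. All 8 reached the minimum, 4 were higher and 4 lower in GW3965, none passed 1.5-fold, and the median ratio was 0.01. Nfkbia, the IκBα gene that NF-κB itself switches on and whose RNA is widely used as a readout of NF-κB activity, was at 47.6 FPKM with DMSO and 46.5 with GW3965 (-0.03). The counting interval of its FPKM ratio was 0.938 to 1.02. Nfkbib (IκBβ) was at 27.4 and 31.2 (0.18) and Nfkbie (IκBε) at 10.4 and 9.05 (-0.18). The 3 classical IκB genes summed to 85.3 FPKM with DMSO and 86.7 with GW3965, while their members differed in direction. Nfkbib shares its locus with Sirt2.

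The enzymes and scaffolds that end the signal were also close. Tnfaip3, the ubiquitin-editing protein A20, was at 12.2 FPKM with DMSO and 13.02 with GW3965 (0.09). Its binding partner Tnip1 was at 31.7 and 37.6 (0.24), the highest ratio of the inhibitors, in a locus shared with Gm12230. Zc3h12a, a ribonuclease that degrades Il6 RNA, was at 10.96 and 11.3 (0.05). Irak3, a kinase-like brake on Myd88 signalling, was at 13.2 and 12.0 (-0.13), in a locus shared with Tmbim4. Socs3, the STAT3 target that blocks gp130 signalling, was at 14.02 and 13.3 (-0.07).

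Of the 5 effector targets, Icam1, Vcam1 and Tnfaip2 reached the minimum, and all 3 were lower in GW3965 with a median ratio of -0.20. Over all genes at the minimum 47.1% had a ratio below 0, and 3 genes are too few to set against that share. Tnfaip2, a TNF-inducible gene, was at 40.5 FPKM with DMSO and 33.9 with GW3965 (-0.25). Icam1, an adhesion molecule for leukocytes, was at 40.8 and 35.3 (-0.20), in a locus shared with Icam4 and Icam5. Vcam1, another leukocyte adhesion molecule, was at 13.2 and 12.6 (-0.07). None of the 3 passed 1.5-fold. In the authors' deposited table, p was 0.339 for Tnfaip2, 0.283 for Icam1 and 0.724 for Vcam1. The inducible enzymes were low in both libraries, with Nos2, the inducible nitric oxide synthase, at 0.611 and 0.627 FPKM and Ptgs2, the inducible cyclooxygenase, at 0.635 and 0.651.

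The authors' deposited table tested all 41 genes and called 0 of them, while it called 0.285% of the genes it tested. With 1 library a side, that test speaks to these 2 libraries and not to GW3965 as a treatment. Standard errors of the log2 FPKM ratio, derived from the score in the authors' deposited table, ran from 0.18 to 0.56 with a median of 0.28. The 95% intervals made from them held 0 for 40 of the 41 genes, and for 32 of the 41 they lay within 2-fold in either direction. The counting intervals are narrower, and those of 20 of the 41 genes left out a ratio of 1, 11 higher and 9 lower. Such intervals were made for the 41 genes only. With no share over all genes beside it, that count does not set these genes apart. Counting intervals cover counting error only, and neither interval measures how 2 cultures treated alike would differ.

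**Figure D3:**
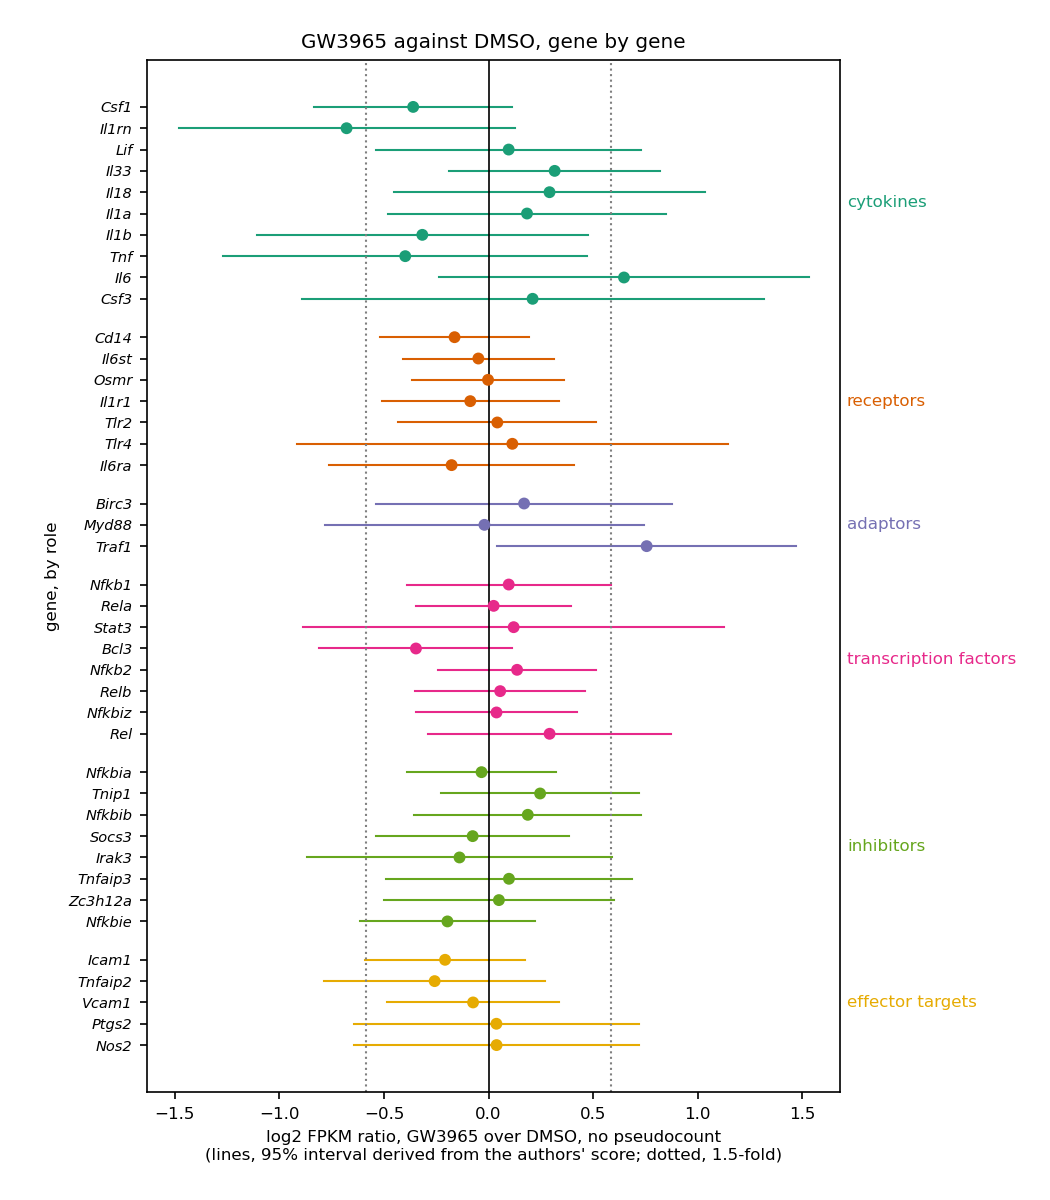
Log2 FPKM ratio of GW3965 over DMSO without a pseudocount for each gene (points, coloured by role), with 95% intervals derived from the score of the authors' deposited table (lines). Traf1 alone has an interval that leaves out 0, and the dotted lines mark 1.5-fold.

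The relay between these receptors and factors was described with 3 further lists, whose members include none of the 41. Of 25 NF-κB kinases and relay proteins 23 reached the minimum, none passed 1.5-fold, and the median ratio was 0.01 with 10 below 0. Ikbkg, the regulatory subunit of the IκB kinase, was at 50.5 FPKM with DMSO and 60.4 with GW3965 (0.25), in a locus shared with G6pdx. Traf3, a brake on the alternative route, stood at 0.27, and Birc2, a relative of Birc3, at -0.24. The IκB kinases Chuk and Ikbkb were at -0.09 and -0.05.

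In the IL-1 and Toll-like receptor relay, 14 of 21 genes reached the minimum, none passed 1.5-fold, and the median ratio was -0.09 with 8 below 0. Casp1, the protease that matures IL-1β and IL-18, was at 1.49 and 0.864 FPKM (-0.42), and Il18rap, a chain of the IL-18 receptor, at 0.658 and 1.19 (0.40). In the gp130 and JAK relay, 18 of 20 genes reached the minimum, none passed 1.5-fold, and the median ratio was -0.07 with 12 below 0. Cebpd, a transcription factor induced by IL-6, was at 20.9 and 17.6 (-0.23), while the kinases Jak1 and Jak2 stood at 0.04 and -0.003. Across the 3 relay lists, 0 of the 55 measured genes passed 1.5-fold, against 2.35% of all genes.

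Acute phase genes driven by IL-6 and IL-1 ranged from lower to slightly higher with GW3965. Of 13 such genes 12 reached the minimum, 10 had a ratio below 0, against 47.1% of all genes, and 2 passed 1.5-fold downward, against 1.33% of all genes. The median was -0.18. The fibrinogen chains Fga, at 591 FPKM with DMSO and 367 with GW3965 (-0.69), and Fgg, at 320 and 199 (-0.68), passed the threshold. Saa3, an acute phase serum amyloid, was at 422 and 296 (-0.51), and haptoglobin (Hp) at 6437 and 4826 (-0.42). The serum amyloids Saa1, at 1402 and 1335 (-0.07), and Saa2, at 571 and 617 (0.11), were more abundant than Saa3 and nearly level. Fgb, another fibrinogen chain, was at 2458 and 2000 (-0.30), and Steap4 at 173 and 130 (-0.41). Lcn2, Orm1, Orm2 and Lbp had ratios of -0.07, -0.06, -0.02 and 0.15. Il6st, Il6ra and Stat3, which carry the IL-6 signal, had RNA ratios between -0.11 and 0.12. The STAT3 target Socs3 was at -0.07, and Cebpd, induced by IL-6, at -0.23. These are RNA levels, and whether signalling differed between the cultures was not tested.

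Of the hepatocyte markers, Hnf4a was at 49.4 FPKM with DMSO and 37.4 with GW3965 (-0.39), Ttr at 205 and 189 (-0.12) and Apoa1 at 598 and 660 (0.14). Tat, under the minimum, was at 0.962 and 0.447. The 7 measured hepatocyte markers had a median ratio of 0.13, with 5 ratios above 0 and 2 below. Cps1, Tdo2, Ass1 and Cyp2e1 had ratios of 0.31, 0.22, 0.13 and 0.07. Markers of other liver cells were present beside these genes. Of 15 macrophage markers that the table holds, 11 reached the minimum, with a median ratio of -0.10. Their summed level was 139 FPKM with DMSO and 150 with GW3965, of which Cd68, a lysosomal protein, made up 74.9 and 93.9. The resident macrophage markers Clec4f, Marco and Timd4 stood at 2.99, 0.813 and 0.149 FPKM in DMSO and at 3.11, 0.745 and 0.240 in GW3965, and none of the 15 was at 0. Of the 11 measured macrophage markers, 7 had a ratio below 0 and 4 above. C1qa was at 12.3 FPKM with DMSO and 9.37 with GW3965 (-0.35), C1qc at 11.7 and 9.23 (-0.32) and Lyz2 at 11.5 and 9.10 (-0.31). Cd68 and Cd5l, both at 0.32, went the other way. Endothelial markers summed to 128 and 152 FPKM (median ratio 0.27), with Cdh5 at 52.9 and 65.2. Pecam1, at 35.1 and 42.6, is part of these sums, and its status in the authors' deposited table is FAIL. The sinusoidal marker Clec4g went the other way, at 2.14 and 0.996 (-0.66), in a locus shared with 7SK, Gm16553 and Gm9814. The sums were 88.8 and 95.1 for stellate cell and fibroblast markers (median ratio 0.21). Dcn made up 64.8 and 65.6 of them and was nearly level (0.02). Of the 7 measured stellate cell and fibroblast markers, 6 had a ratio above 0 and 1 below. Of the 7 lymphoid and granulocyte markers none reached the minimum, and Ly6g was at 0 in both libraries. Il1b, Tnf, Cd14 and Csf1 are also made by such cells, and the part of these cells in their values was not tested.

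**Figure D4:**
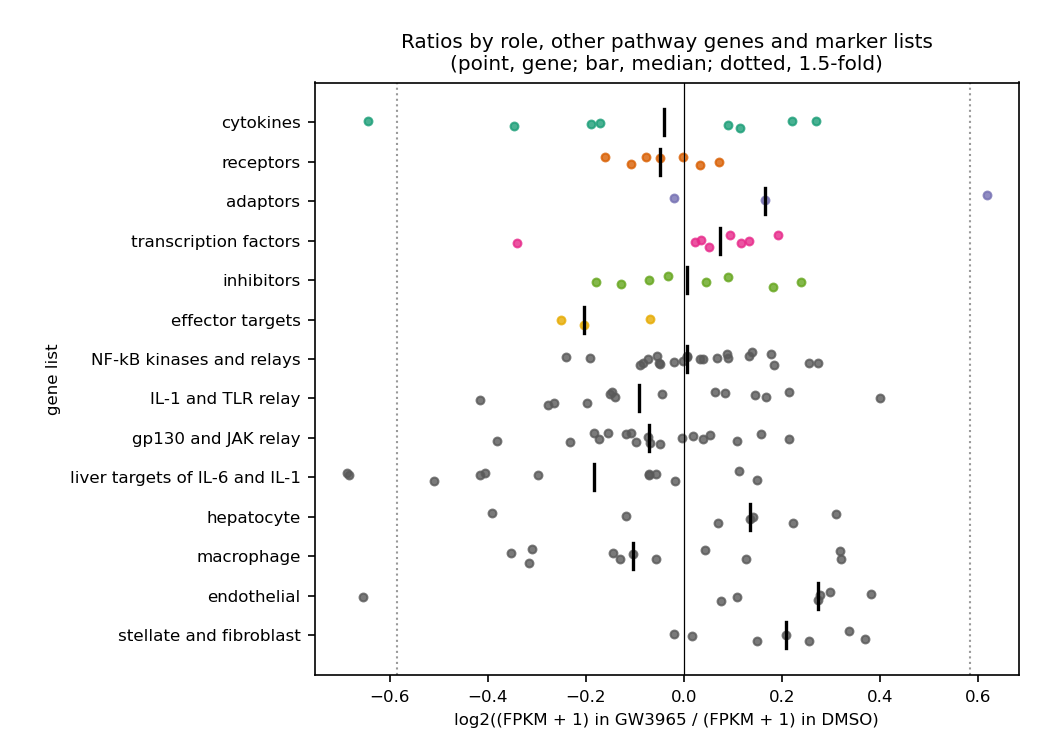
Log2 ratio of each gene at the minimum (points) by role, for the other pathway lists and for the marker lists, with the median of each list as a bar. Of the signalling lists, 1 cytokine and 1 adaptor lie beyond the dotted 1.5-fold lines, and the 3 measured effector targets lie below 0.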

How the data were processed

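Total RNA of the hepatocyte cultures was made into TruSeq libraries, per the labels, and each group has 1 library. CASAVA, TopHat2 (2.0.6), then Cufflinks (2.0.2), then Cuffdiff are named in the submitters' processing notes, with the builds NCBIM37 and mm9 but no settings. How strand was handled is not given in the sources used. The deposited values are FPKM, 1 column per library. The authors' table also holds a log2 fold, a p-value, a q-value and a score, per the file headers. The sign of the score is opposite to the fold, and another column gives a signed fold as a score, which was not used.

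All 41 genes, their roles, the other lists and the markers were chosen with earlier results of these data known. All 41 are reported, and of other lists those with the largest ratios in size and some further members picked after their values were seen. Some genes that this would name are not reported here. The 7 genes marked for too many fragments were left out. Ratios used a pseudocount of 1 FPKM, a minimum of 1 FPKM in either library and a threshold of 1.5-fold, and no test was run, since each group has 1 library.

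Depth was estimated from low values. Among 3769 genes under 0.2 FPKM, 57.4% of the ratios between libraries were ratios of whole numbers up to 10 within 0.1%, after division by 1.24, against 1.59% when moved by 3%. Fragments behind a gene were estimated at its shortest annotated coding transcript in GENCODE M21, and exact binomial intervals of 95% were made from them. They are estimates. Standard errors were the log2 fold over the score of the authors' table, whose p equalled the normal p of that score within 0.001 for 99.1% of tested genes. Table positions are in mm9, with 1 added to starts, which fitted the GENCODE length of 58.5% of loci with 1 gene, against 1.53% otherwise. Promoters are from RefSeq in GRCm38.p6, and were not joined with table positions. The size rule was run on simulated data with changes well beyond the threshold and an assumed noise. That run does not bear on ratios close to 1.5-fold, such as those of Traf1 and Il1rn. Alternatives were other pseudocounts, minimums and thresholds, centring, scaling to 1 sum and subsets of genes. The work was done in Python 3.11.15 with matplotlib 3.10.9, scipy 1.17.1, pandas 2.3.3 and numpy 2.4.6.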

Additional observations from a re-analysis of the deposited data

How the results depend on the processing

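Traf1 and Il1rn were the genes past 1.5-fold in every alternative run except a pseudocount of 5 FPKM and a threshold of 2-fold, where the counts were 0 higher and 0 lower. Of 93 values recomputed, 81 stayed within 1.5 times for counts, or kept their sign and stayed within 0.05 for medians. The subsets of genes the authors tested and of rows naming 1 gene hold all 37 measured genes. Their values could not differ from those reported, so the 81 overstates how far the results were tried. The median of all members was -0.0025 at a minimum of 5 FPKM, and the median of the inhibitors was -0.0047 after centring and -0.033 among genes alone in their locus, a subset chosen after the data were seen. Cytokines stood at -0.098 with a pseudocount of 0.1 FPKM, at 0.063 without a minimum, which lets in Il6 and Csf3, and at -0.13 at a minimum of 5 FPKM. Effector targets stood at -0.069 without a minimum, which lets in Nos2 and Ptgs2, and adaptors at 0.39 among genes alone in their locus, which leaves out Myd88. The medians that changed sign, those of all members, cytokines and inhibitors, lay within 0.05 of 0 as reported. No paired analysis was possible because there is 1 library on each side. Low fragment numbers limit Il6, Csf3 and Tnf, and these numbers depend on the transcript length taken.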

Other observations

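The genes of these paragraphs were picked by symbol after the data were seen. Of 68 further genes with an interleukin or interleukin receptor symbol, 15 reached the minimum and 21 were listed at 0 in both libraries. Of the 15, 8 had a ratio below 0, against 47.1% of all genes, and the median was -0.01, against 0.01 over all genes. Il15ra, the chain that presents IL-15, was at 7.18 FPKM with DMSO and 4.10 with GW3965 (-0.68). It was the 1 gene of the 15 past 1.5-fold, against 2.35% of all genes in either direction. A single gene is too few to set against that share. Il34, which shares a receptor with Csf1, was at 1.86 and 1.19 (-0.38), beside Csf1 at -0.35. Il13ra1, a chain of the IL-13 receptor, was at 24.2 and 29.2 (0.26), and Il4ra, its partner, at 29.4 and 32.1 (0.12).

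Of 30 further table entries with a TNF superfamily symbol, 14 reached the minimum, and their median was 0.17, against 0.01 over all genes. Of the 14, 3 were at least 1.5-fold higher in GW3965, against 1.02% of all genes, and 0 lower, against 1.33%. These entries include 1 symbol listed in 2 rows at the same locus, so they are not separate genes throughout. They leave out Tnfrsf1a and Tnfrsf1b, which belong to the NF-κB kinase and relay list and stood at -0.003 and 0.09. Tnfrsf9, a costimulatory receptor known to bind Traf1, was at 1.70 FPKM with DMSO and 4.06 with GW3965 (0.91), in the same direction as Traf1. No counting interval was made for Tnfrsf9, and a link with Traf1 in these cultures was not tested. The other 2 entries past 1.5-fold both carry the symbol Tnfrsf22, a decoy receptor. They were at 34.3 and 53.6 (0.63) and at 11.6 and 18.5 (0.63). Tnfrsf22 has close relatives, among them Tnfrsf23 at 0.41, between which reads may be shared, so these values are uncertain. Tnfrsf12a, the receptor of Tnfsf12, was at 345 and 313 (-0.14), above all 41 genes of the report.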
